A study of Mus musculus with 8 samples.

Results

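The genes described here are those of cyclic AMP signalling in the mouse brain after permanent occlusion of the middle cerebral artery (PMCAO). They were taken by name from the array: the adenylyl cyclases (Adcy), the phosphodiesterases (Pde), the catalytic and regulatory subunits of protein kinase A (Prkac and Prkar), CREB and its relatives with the coactivator Crebbp, the A-kinase anchoring proteins (Akap) and the Rap exchange factors (Rapgef). This gave 61 genes with 141 probes, of 27962 gene names and 41174 probes on the array. The rule used names only and no measured value. All animals were C57BL/6J males aged 8 to 12 weeks, and each received 1 μl into the cerebral ventricle directly after surgery. The 8 groups were sham-operated or PMCAO mice, given saline or 1 pmol PACAP38, and killed at 6 h or 24 h. RNA came from the ipsilateral hemisphere without olfactory bulb and cerebellum, so that a pool mixes infarct core, penumbra and tissue outside the ischemia. RNA of 3 mice was pooled for each group, and the PMCAO mice had been selected by their neurological grade.

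PACAP38 is a neuropeptide whose receptors couple to the stimulatory G protein. That protein activates adenylyl cyclase, which makes cyclic AMP from ATP. Cyclic AMP releases the catalytic subunits of protein kinase A from the regulatory ones and activates the exchange factors Epac1 (Rapgef3) and Epac2 (Rapgef4). Protein kinase A phosphorylates CREB, which binds the cyclic AMP response element of its target promoters, while phosphodiesterases degrade the messenger and anchoring proteins hold the kinase at fixed places in the cell.

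The element to which CREB binds is shown here because CREB is the transcription factor of the pathway. The full palindrome TGACGTCA was searched in RefSeq promoters of GRCm38.p6, from 250 bases before to 50 bases after the transcription start. Of the 61 genes 50 had an entry, and 2 of these 50 (4%) held the palindrome in any of their windows, compared with 549 of 27025 genes (2.03%) with an entry. These were Creb5, a relative of CREB, and Prkar1a, a regulatory subunit of protein kinase A. Among 12 classical CREB target genes with an entry, 2 held it, Dusp1 and Sst (16.7%). A gene can have several windows. There were 95 for the 50 genes, 19 for the 12 targets and 32851 for the 27025 genes, so that shares of genes are not like for like. The 4 windows below are each 30 bases long and written 5′ to 3′ on the strand of the gene, with the palindrome in capitals. They lie at chr6:53287247-53287276 on the plus strand (Creb5), chr11:109650889-109650918 on the plus strand (Prkar1a), chr17:26508597-26508626 on the minus strand (Dusp1) and chr16:23890874-23890903 on the minus strand (Sst).
Creb5: ggaatcccacgTGACGTCAccgggggggtg
Prkar1a: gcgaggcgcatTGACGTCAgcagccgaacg
Dusp1: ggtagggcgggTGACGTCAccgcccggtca
Sst: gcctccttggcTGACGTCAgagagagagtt
The palindrome began 45 bases before the start in Creb5, 49 in Prkar1a, 143 in Dusp1 and 48 in Sst. The shorter site TGACG, searched on both strands and contained in the palindrome, was present in 17 of the 50 genes (34%), in 12 of the 12 target genes (100%) and in 6228 of 27025 genes (23.0%). A match of letters is a description and not a binding site.

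Each of the 8 arrays carried a saline pool and a PACAP38 pool of the same surgery and time in different dyes. Array 1 of a comparison had PACAP38 in Cy5 and array 2 had the same RNA with the dyes exchanged, so that a comparison has 1 replicate and no test of its own. Dye bias was visible. Over all probes the log2 ratio of PACAP38 over saline on array 1 correlated with that on array 2 at -0.15 (sham) and -0.14 (PMCAO) at 6 h, and at -0.42 (sham) and 0.05 (PMCAO) at 24 h. For the cyclic AMP probes these values were 0.02, -0.15, -0.54 and 0.34, across probes that are not independent of each other. Array 2 of sham at 6 h stood apart: 10.7% of its spots were marked as outliers against 0.323% to 3.09% on the others, and its signals correlated with those of array 1 at 0.926 to 0.939 against 0.982 to 0.992 in the other comparisons. The 6 h arrays shared one slide and the 24 h arrays another, and slide and time cannot be told apart. Of the 61 genes, 49 had a brightest probe well above background in all 16 channels, and 3 (Akap3, Akap4 and Pde6a) in none. The neuronal markers Snap25, Syt1 and Nefl were well above background in all 16 channels. Of 5 markers of cerebellar granule cells, cells of a region described as removed, 3 were past the upper threshold and 5 were higher with PACAP38 on both arrays in PMCAO at 6 h. Of these 3, Gabra6 and Cbln3 were not well above background in the saline pool, and Neurod1 had 1.0 and 0.35. The summed signal of the 5 markers was 9648 to 10082 for saline and 11909.8 to 14175 for PACAP38. The presence of cerebellum was not tested.

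PACAP38 over saline was examined first. At 24 h after PMCAO the mRNA of Akap12, an anchoring protein for protein kinases A and C, was at 0.295 of the saline level, while phosphodiesterase Pde4b and adenylyl cyclase Adcy4 were lower by less and Pde10a was higher. In the other 3 comparisons at most 3 probes were past the threshold on both arrays. A mean ratio above 1.5-fold or below 0.75-fold was taken as past the threshold. In sham at 6 h 4 probes were higher and 11 lower of 131 (all probes, 3.98% and 7.48%). In PMCAO at 6 h 6 were higher and 6 lower of 131 (5.41% and 6.9%). In sham at 24 h 1 was higher and 4 lower of 141 (1.75% and 3.87%). In PMCAO at 24 h 5 were higher and 10 lower of 141 (2.99% and 8.18%). The 15 probes of the last comparison belonged to Adcy1, Akap11, Pde10a and Pde7b (higher) and to Adcy4, Akap12, Akap13, Akap2, Pde1c and Pde4b (lower). Of the 12 in PMCAO at 6 h, those of Akap13, Crem, Pde4b and Pde5a were higher, those of Adcy5, Akap4, Pde11a, Pde4c and Rapgef1 lower, and those of Rapgef6 went both ways. These counts are close to those of the whole array. They moved with the normalization, since after normexp and loess 1, 1, 0 and 7 probes passed in the same order.

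**Figure D1:**
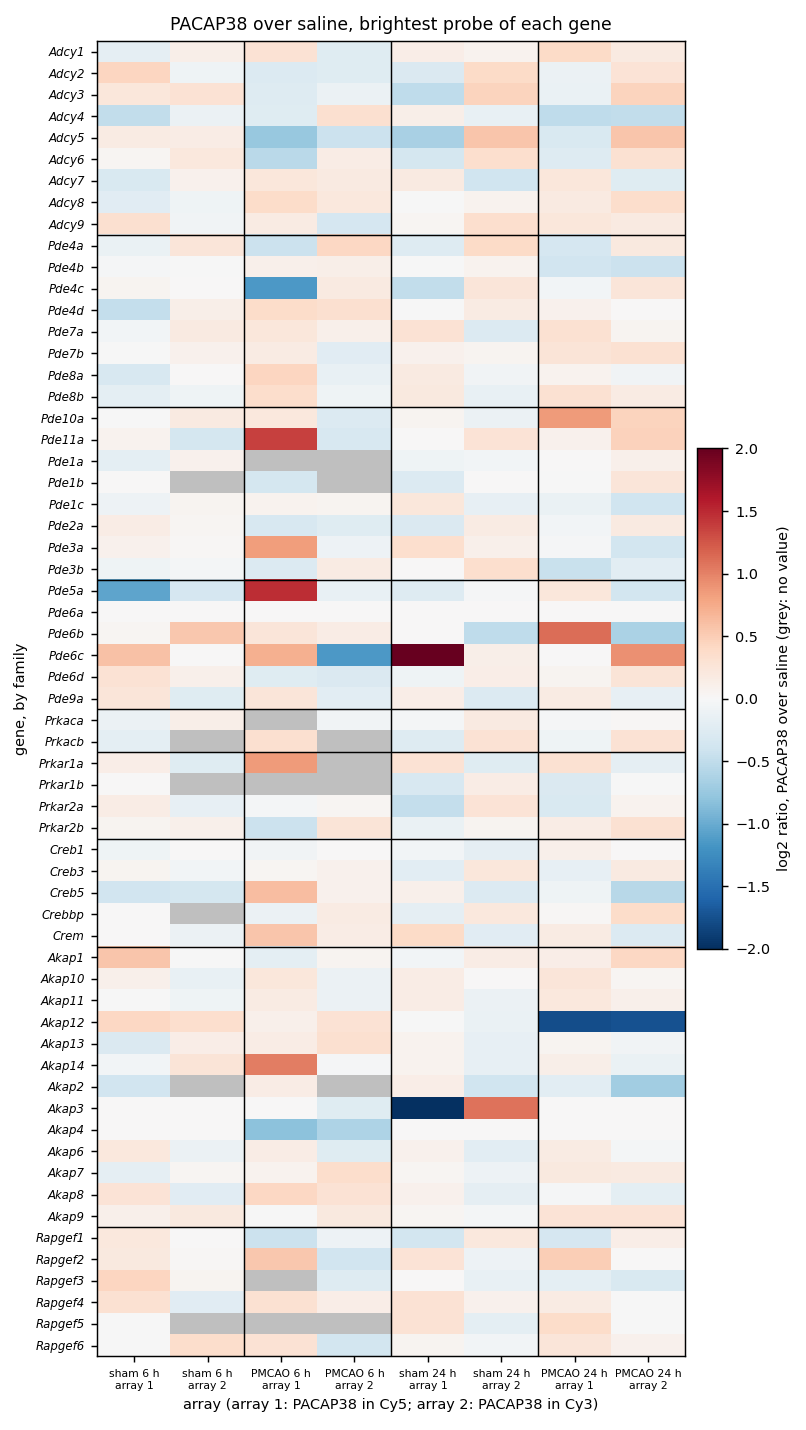
Log2 ratio of PACAP38 over saline for the brightest probe of each of the 61 genes (rows, by family) on each of the 8 arrays (columns, 2 per comparison with the dyes exchanged); colours end at 2 on either side and grey marks no value. In PMCAO at 24 h Akap12 is low on both arrays (-1.78 and -1.74), while many other cells change sign between the 2 arrays of a comparison.

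Probes past the threshold on both arrays were fewer. At 6 h there were 2 higher and 1 lower for sham (all probes, 0.79% and 1.04%) and 0 and 2 for PMCAO (1.14% and 1.63%). At 24 h there were 0 and 0 for sham (0.226% and 0.892%) and 3 and 4 for PMCAO (0.823% and 3.75%). Of the 2 higher in sham at 6 h, a Rapgef1 probe was not well above background. A Pde11a probe, well above background for PACAP38 on 1 array only, was 1.21-fold higher after normexp, loess and Aquantile. The lower one was an Akap13 probe with log2 ratios of -0.65 and -0.47. In PMCAO at 6 h the lower ones were Adcy5, the main adenylyl cyclase of the striatum, and Akap4, which was not well above background.

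**Figure D2:**
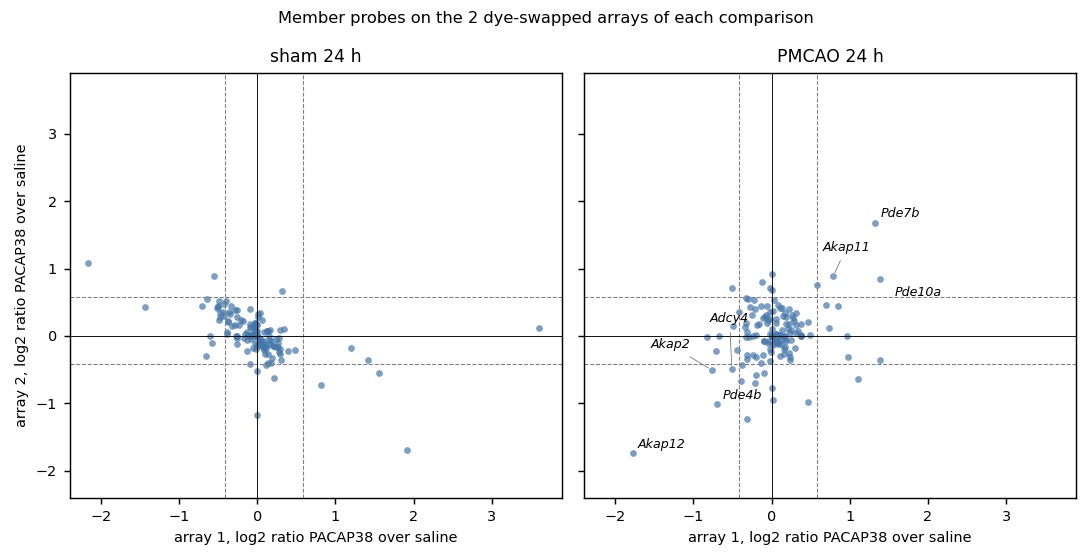
Log2 ratio of PACAP38 over saline of each cyclic AMP probe on array 1 (x axis) and array 2 (y axis) of sham at 24 h and PMCAO at 24 h; dashed lines mark the thresholds of 1.5-fold and 0.75-fold, and probes past them on both arrays are named. In sham at 24 h the points run from upper left to lower right and none is named, whereas in PMCAO at 24 h 7 probes lie past the thresholds on both arrays.

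A test across comparisons was possible with the 4 comparisons as 4 pairs of pools. With limma and Benjamini-Hochberg adjustment over 36121 probes, 0 of 127 cyclic AMP probes passed for the mean ratio over the 4 comparisons (all probes, 0.0%). The smallest adjusted p was 0.871, and at an unadjusted p under 0.05 there were 5 higher and 2 lower. The difference between PMCAO and sham in the ratio gave 0 of 127 as well (all probes, 0.0%), with a smallest adjusted p of 0.75 in limma and with 6 higher and 2 lower at an unadjusted p under 0.05. For the difference between 24 h and 6 h 0 of 127 passed (all probes, 0.0%), the smallest adjusted p in limma was 0.879, and 1 was higher and 1 lower without adjustment. With 2 or 3 residual degrees of freedom these tests measure the spread between pools of different surgery and time.

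The adenylyl cyclases, which make cyclic AMP, are treated first. All 9 had a brightest probe well above background in the 16 channels. Adcy5 had processed signals of 2340 and 2065 in the saline pool and 1388 and 1534 in the PACAP38 pool of PMCAO at 6 h (arrays 1 and 2), with log2 ratios of -0.75 and -0.43. The PACAP38 signals lay below the saline signals on both arrays there. In sham at 6 h its ratios were 0.17 and 0.15. At 24 h its arrays disagreed, with -0.65 and 0.55 in sham and -0.30 and 0.55 in PMCAO. Of 5 other genes of striatal neurons, 2 were lower on both arrays in PMCAO at 6 h, namely Ppp1r1b (-0.64 and -0.39) and Drd2 (-0.52 and -0.29), and for 3 the arrays disagreed. Their summed signal was 5708 to 6169 for saline and 5075 to 5595 for PACAP38, and the part of these neurons in the Adcy5 result was not tested.

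Adcy4, a broadly expressed cyclase, had saline signals of 730 and 617 and PACAP38 signals of 513 and 439 in PMCAO at 24 h. The log2 ratios were -0.51 and -0.49, and in sham at 24 h they were 0.11 and -0.15. Endothelial markers moved the same way in PMCAO at 24 h: 3 of 4 were past the lower threshold, and their summed signal was 21782 to 26972 for saline and 16877 to 18628 for PACAP38. Of the 4, Tek was higher on both arrays (0.31 and 0.16). The part of the endothelium in the Adcy4 result was not tested.

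The brightest probes of the calcium-stimulated cyclases of neurons, Adcy1 and Adcy8, were higher with PACAP38 on both arrays of PMCAO at 24 h without reaching the threshold. The mean ratios of the 4 Adcy1 probes ranged from 0.26 to 0.67 there, and the upper end is past the threshold. The brightest Adcy1 probe had log2 ratios of 0.38 and 0.17, and in sham at 24 h 0.13 and 0.08. Adcy8 had 0.18 and 0.35 in PMCAO at 24 h and -0.01 and 0.07 in sham. Adcy7, a cyclase of blood and immune cells, had 0.22 and -0.25, so that its arrays disagreed. Over the brightest probes of the 9 cyclases the median ratio was 0.12 in PMCAO at 24 h, with a range from -0.50 (Adcy4) to 0.27.

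The phosphodiesterases that degrade cyclic AMP alone are Pde4, Pde7 and Pde8. Pde4b, the isoform tied to inflammatory signalling, had saline signals of 6960 and 6732 and PACAP38 signals of 5362 and 5004 in PMCAO at 24 h. PACAP38 was below saline on both arrays, with log2 ratios of -0.38 and -0.43 for the brightest probe and -0.70 and -1.01 for a dimmer one. The mean ratios of its 4 probes ranged from -0.86 to -0.33. In the other comparisons the brightest probe lay between -0.02 and 0.12 on every array. Pde4d had 0.09 and 0.01 in PMCAO at 24 h.

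Pde7b, a phosphodiesterase enriched in the striatum, had 0.26 and 0.30 for its brightest probe in PMCAO at 24 h. A second Pde7b probe had ratios of 1.33 and 1.68, but its saline signals of 7.91 and 7.50 were not well above background. After normexp, loess and Aquantile its difference was 1.22-fold. Another probe, well above background on 1 of the 2 arrays in each pool, had 0.06 and -0.08, so that the probes of Pde7b did not go together.

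Pde10a, the phosphodiesterase of striatal medium spiny neurons, degrades both cyclic AMP and cyclic GMP. Its saline signals were 464 and 503 in PMCAO at 24 h, and its PACAP38 signals were 835 and 685. These did not overlap, and the log2 ratios were 0.85 and 0.44. A second probe had 1.39 and 0.84. In sham at 24 h the ratios of the brightest probe were 0.06 and -0.11.

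Markers of medium spiny neurons moved with Pde10a and Pde7b. Of 5 measured markers 2 were past the upper threshold in PMCAO at 24 h, and 4 of 5 were higher on both arrays, the exception being Ppp1r1b (-0.65 and 0.90). The dopamine receptor genes Drd2 and Drd1a had log2 ratios of 0.46 and 0.81, and of 0.47 and 0.55. The summed signal of the 5 was 4999 to 6207 for saline and 6540.4 to 7697 for PACAP38, against 7929 to 10568 in the sham pools at 24 h. In a bulk sample fewer cells of a type and less RNA per cell cannot be told apart, and the part of these neurons in the Pde10a and Pde7b results was not tested.

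By their brightest probes the other phosphodiesterases of double specificity showed smaller ratios. The mean ratios of the 6 Pde1c probes ranged from -0.77 to 0.51 in PMCAO at 24 h. Pde1b, the calmodulin-dependent isoform of the striatum, had -0.01 and 0.25 in PMCAO at 24 h, and Pde2a had -0.06 and 0.19. Pde3b, which insulin regulates, had -0.45 and -0.21. Among the isoforms specific for cyclic GMP, Pde5a had arrays of opposite sign (0.23 and -0.36). Pde6a, Pde6b and Pde6c belong to photoreceptors, and their probes were well above background in 0, 4 and 3 of the 16 channels, so that a ratio of 3.60 for Pde6c on array 1 of sham at 24 h stood beside 0.11 on array 2.

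The subunits of protein kinase A had small ratios. The catalytic subunits Prkaca and Prkacb had log2 ratios of -0.02 and 0.02, and of -0.09 and 0.29, in PMCAO at 24 h. Of the regulatory subunits, Prkar2b, the neuronal type II subunit, was higher on both arrays (0.15 and 0.30), and Prkar1a (0.30 and -0.18), Prkar1b (-0.28 and -0.01) and Prkar2a (-0.31 and 0.06) were not. In PMCAO at 6 h Prkar1a had a ratio of 0.84 on array 1 and no value on array 2, where its spot was an outlier.

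In the CREB family 0 of 5 brightest probes were past the threshold in PMCAO at 24 h. Creb1, which encodes CREB itself, had 0.10 and 0.01. Creb3, an endoplasmic reticulum relative, had -0.16 and 0.18, and Crebbp, the acetyltransferase that binds phosphorylated CREB, had 0.02 and 0.37. Crem, whose short form ICER represses the same promoters, had 0.16 and -0.27, and Creb5, shown above with its palindrome, had -0.09 and -0.56. In PMCAO at 6 h Crem was higher on both arrays (0.56 and 0.14), as was Creb5 (0.61 and 0.09), and both means lay below the threshold.

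Akap12 gave the largest ratio among the brightest probes well above background in all 16 channels. In sham at 24 h its saline signals were 5619 and 6340 and its PACAP38 signals 5595 and 5771. In PMCAO at 24 h the saline signals were 25360.5 and 23542 and the PACAP38 signals 7391 and 7034. The saline PMCAO pool was thus above the other 3 pools of that time on both arrays, and the PACAP38 PMCAO pool was near the sham pools.

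The log2 ratios of Akap12 at 24 h were -1.78 and -1.74 after PMCAO and -0.01 and -0.14 after sham surgery. At 6 h they were 0.10 and 0.29 after PMCAO and 0.41 and 0.33 after sham surgery. The difference between PMCAO and sham averaged over the times was -0.93 ± 0.86 (SE), with an adjusted p of 0.796 in limma. The value at 24 h rests on 1 pool of saline and 1 of PACAP38. Genes of the acute response to ischemia were lower in the same comparison, 7 of 7 past the lower threshold, with a summed signal of 73623 to 75222 for saline and 29621 to 32994 for PACAP38 (sham, 6252 to 8037). All 5 neutrophil markers were past the lower threshold as well, with 45281 to 51010 for saline and 5520 to 5974 for PACAP38 (sham, 733 to 1160), although Mmp8, Ngp and Camp were well above background in 8, 2 and 0 of the 16 channels. The part of either list in the Akap12 result was not tested.

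**Figure D3:**
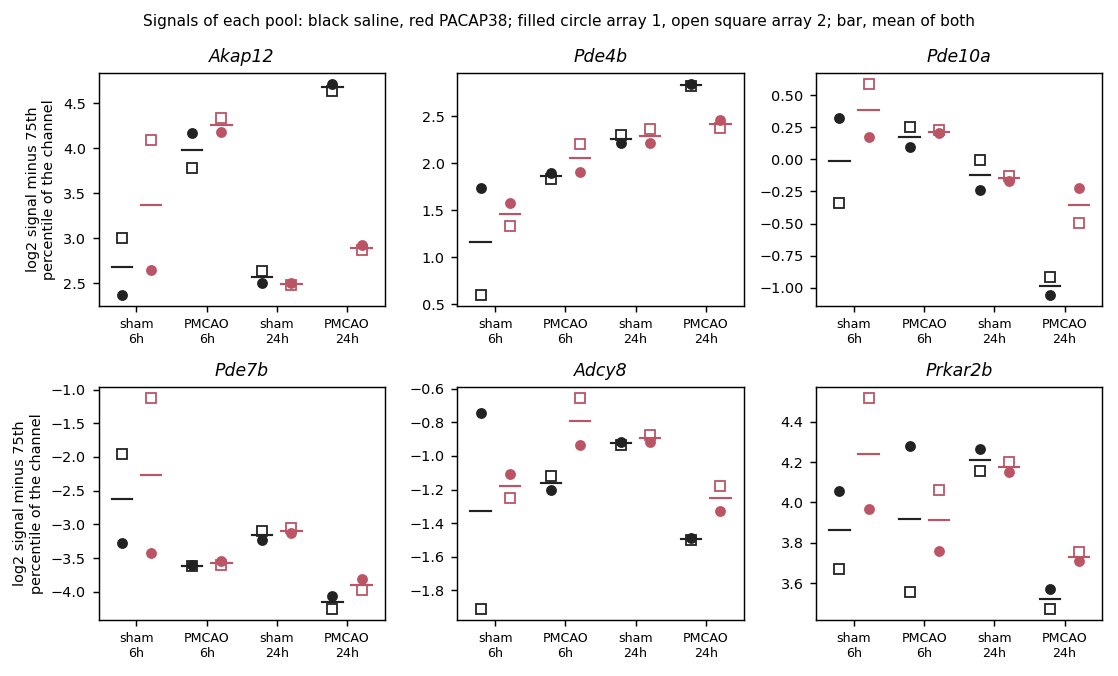
Signals of Akap12, Pde4b, Pde10a, Pde7b, Adcy8 and Prkar2b in the 8 pools, on the log2 scale after subtraction of the 75th percentile of each channel; black is saline and red PACAP38, filled circles are array 1, open squares array 2 and bars their mean, and each panel has its own axis. In PMCAO at 24 h the saline pool is the highest of the 24 h pools for Akap12 and Pde4b and the lowest for the other 4 genes, and the points of sham at 6 h lie far apart.

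The other anchoring proteins lay closer to 0. A second probe of Akap11, an anchor that also binds GSK3, had 0.79 and 0.89 in PMCAO at 24 h with saline signals of 957 and 964 and PACAP38 signals of 1656 and 1785, and the brightest Akap11 probe had 0.21 and 0.10. An Akap2 probe had -0.77 and -0.51, the brightest Akap2 probe had -0.21 and -0.70, and for another Akap2 probe the arrays disagreed (-0.18 and 0.16). Different probes of a gene can read different transcripts. By brightest probe the mean ratios of the 13 anchoring proteins ranged from -1.76 (Akap12) to 0.27, with a median of 0.00.

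Of the Rap exchange factors, Rapgef3 (Epac1) had -0.20 and -0.31 and Rapgef4 (Epac2) had 0.16 and -0.00 in PMCAO at 24 h. The range over the 6 genes was -0.25 to 0.25. In the 4 comparisons 0 brightest probes of this family passed the threshold.

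The groups also allow a comparison of the hemisphere with PMCAO and the sham one, although no array carried both. For this the channels of one dye were set against each other within a time, after each was scaled to its 75th percentile, and the saline and PACAP38 pools gave a difference each. Both pools of one surgery and time were measured on the same arrays, so that an error common to both channels of an array does not enter the residual of the test. A gap between the saline and the PACAP38 difference, as for Akap12 at 24 h, does enter that residual.

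At 24 h more cyclic AMP genes were lower than higher after PMCAO. In all 4 measurements, that is for saline and PACAP38 on arrays 1 and 2, 30 of the 61 genes were lower and 12 were higher by their brightest probe, compared with 23.5% lower and 25.1% higher of all genes. Among probes well above background in all 16 channels 33 of 90 cyclic AMP probes were lower (36.7%) and 12 higher (13.3%), against 32.6% and 24.2% of all such probes. The median difference of the 127 probes tested was -0.09 and that of all 36121 probes 0.03. Of the 30 lower genes 29 and of the 12 higher ones 10 had the same direction under each of 4 scalings, the exceptions being Pde6c, Akap4 and Rapgef4. These are counts of direction and no test was made on them.

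The cyclases Adcy1, Adcy2, Adcy3, Adcy5, Adcy6 and Adcy8 were among the genes lower in all 4 measurements. Adcy8 had signals of 527 and 534 in the saline sham pool and 344 and 335 in the saline PMCAO pool. The log2 differences were -0.58 and -0.57 for saline and -0.41 and -0.31 for PACAP38. Adcy1 had -0.54 and -0.41 for saline and -0.31 and -0.32 for PACAP38. This was its brightest probe, and the mean differences of its 4 probes ranged from -0.39 to 0.73, so that they did not go together. The adjusted p in limma was 0.179 for Adcy8 and 0.208 for Adcy1. Adcy7 was the 1 cyclase higher in all 4, with 0.20 and 0.07 for saline and 0.23 and 0.21 for PACAP38.

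Of the phosphodiesterases, Pde7b had signals of 106 and 119 in the saline sham pool and 57.9 and 49.6 in the saline PMCAO pool. Its differences were -0.83 and -1.16 for saline and -0.68 and -0.92 for PACAP38, with a mean of -0.90 ± 0.14 (SE) and an adjusted p of 0.0681 in limma. After normexp, loess and Aquantile the mean was -0.37 with an adjusted p of 0.018, and over all probes of the gene it was -0.19. With median scaling the adjusted p in limma was 0.0553, and with quantile normalization 0.103. Pde10a had -0.82 and -0.91 for saline and -0.05 and -0.37 for PACAP38, with an adjusted p of 0.271. Pde8b, a phosphodiesterase of high affinity for cyclic AMP, had -0.52 and -0.53 for saline and -0.43 and -0.23 for PACAP38. The saline PMCAO pool was the lowest of the 4 pools of 24 h for these 3 genes.

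Pde4b was higher, with 0.63 and 0.52 for saline and 0.25 and 0.01 for PACAP38. Pde3b was higher too, with 0.50 and 1.42 for saline and 0.02 and 0.87 for PACAP38, where the 2 arrays differ by more than the pools do. The adjusted p in limma was 0.325 for Pde4b and 0.140 for Pde3b. For Pde3b the mean of 0.70 became 0.26 after normexp, loess and Aquantile, with an adjusted p of 0.0472. Median scaling gave Pde3b an adjusted p of 0.135 in limma, and quantile normalization 0.183. Pde4d was lower in all 4 measurements, from -0.57 to -0.09, and Pde1b as well, from -0.64 to -0.19. These values are of the brightest probes, and other probes disagreed. The mean differences ranged from -0.61 to 0.81 over 4 Pde4b probes and from -0.76 to 0.52 over 4 Pde4d probes. Over 2 Pde3b probes they ranged from -0.07 to 0.70.

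Prkar2b was the subunit of protein kinase A with the largest difference. Its signals were 19107 and 18233 in the saline sham pool and 11482 and 10528 in the saline PMCAO pool, and 17472 and 18955 in the PACAP38 sham pool and 12711 and 12974 in the PACAP38 PMCAO pool. No PMCAO signal reached a sham signal. The log2 differences were -0.70 and -0.68 for saline and -0.44 and -0.45 for PACAP38, with a mean of -0.57 ± 0.16 (SE) and an adjusted p of 0.165 in limma. After normexp, loess and Aquantile the mean was -0.55 and the adjusted p 0.0229. The adjusted p in limma was 0.104 with median scaling and 0.165 with quantile normalization. The catalytic subunits stayed near 0, with Prkaca between -0.14 and 0.04 and Prkacb between -0.21 and 0.01.

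Crem was lower in all 4 measurements (-0.26 and -0.35 for saline, -0.50 and -0.40 for PACAP38), as were Creb1 and Crebbp, while Creb3 was higher by 0.11 to 0.17. The mean differences of the 2 Creb3 probes ranged from -0.01 to 0.13. Akap12 was higher by 2.21 and 2.00 for saline and by 0.42 and 0.38 for PACAP38, with a mean of 1.25 ± 0.42 (SE) and an adjusted p of 0.220 in limma. The saline value uses the same PMCAO pool as the PACAP38 ratio given above. Akap14, an anchor of ciliated cells, was lower by -1.05 and -0.64 for saline and by -1.03 and -0.62 for PACAP38, with an adjusted p of 0.0589. Its mean of -0.84 became -0.21 after normexp, loess and Aquantile.

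By the test at 24 h 4 of 127 cyclic AMP probes were higher and 0 lower (all probes, 1.28% and 0.573%). Each of the 4 rested on 1 array. The Akap10 probe had signals of 619.5 and 688 on array 1 of sham at 24 h and 2.57 and 3.47 on array 2, against 521 to 616 on the PMCAO arrays. This gave a mean difference of 3.76 on the log2 scale, and of -0.18 with the first array of each surgery alone. It was 1.35 after normexp, loess and Aquantile and 0.73 as the mean of all Akap10 probes.

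A Pde3a probe had signals of 27.0 and 22.8 on array 1 of PMCAO at 24 h and at most 4.04 on the other arrays of that time. A Pde7b probe had 40.9 and 38.6 on array 2 of PMCAO at 24 h and at most 7.74 elsewhere, and a Rapgef5 probe had 24.8 and 28.5 there and at most 5.92 elsewhere. With the 2 pairs of arrays as the replicates in limma, 0 of 127 passed at 24 h (all probes, 0.0%), the smallest adjusted p was 0.805, and 3 were higher and 3 lower at an unadjusted p under 0.05. This second fit was chosen after seeing the data.

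**Figure D4:**
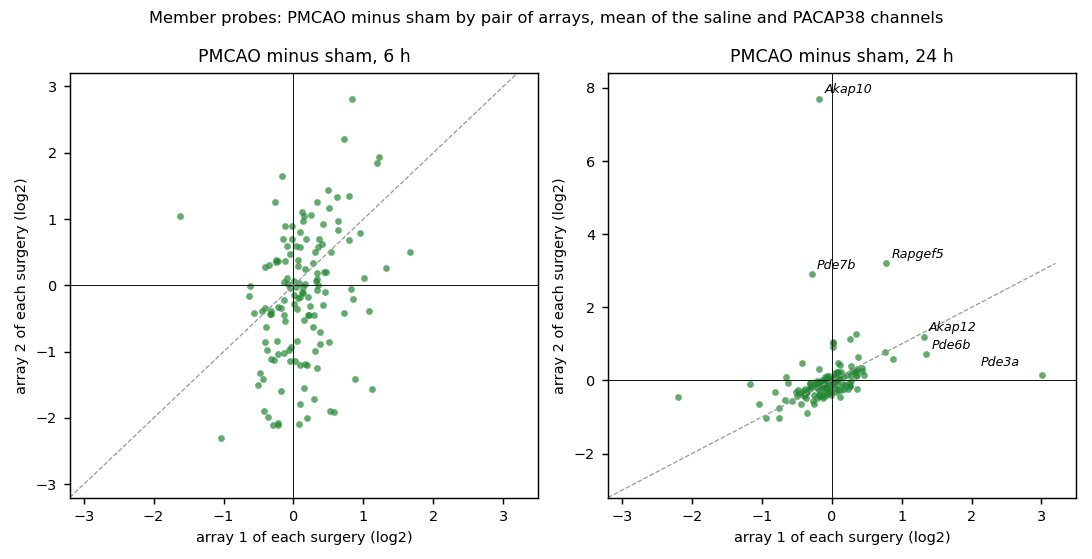
Difference between PMCAO and sham (log2) of each cyclic AMP probe at 6 h and 24 h, from array 1 of each surgery (x axis) and array 2 of each surgery (y axis), averaged over the saline and PACAP38 channels; the dashed line marks equal values, and the y axis at 24 h runs higher. At 6 h the second arrays spread more widely than the first, and at 24 h Akap10, Rapgef5, Pde7b and Pde3a lie far from the line while Akap12 lies near it.

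At 6 h the test passed 17 of 127 probes higher and 27 lower (all probes, 20.1% and 20.5%), and the result depended on the second arrays of the 2 surgeries, among them array 2 of sham at 6 h described above. Since channels were set against each other within a dye, that array could not be left out without its PMCAO partner. The SD over all probes of the difference was 0.54 for the first arrays and 1.30 for the second arrays. With the first arrays alone 0 of 135 cyclic AMP probes were higher and 0 lower (all probes, 0.216% and 0.0298%), and at an unadjusted p under 0.05 there were 20 and 6. With the 2 pairs of arrays as replicates 0 of 127 passed in limma (all probes, 0.0%), with a smallest adjusted p of 0.317 and 12 higher and 5 lower at an unadjusted p under 0.05. Scaling by the median in place of the 75th percentile moved the median of all probes from 0.06 to -0.15 at 6 h and the split from 17 and 27 to 13 and 43.

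The genes that passed at 6 h are therefore given by their log2 difference, followed by that of the first arrays alone and by that after normexp, loess and Aquantile. Pde4c, a phosphodiesterase with low levels in brain, had 1.82, 0.84 and 0.25. Pde4b had 0.65, 0.24 and 0.94. Creb3 had 0.43, -0.03 and 0.87, with a change of sign for the first arrays.

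Among the lower genes Pde11a had -1.67, -1.04 and -0.85. Akap11 had -1.17, -0.36 and -0.93, and Akap14 had -1.16, -0.43 and -0.26. Pde7b had -1.15, -0.23 and -0.77, and Pde5a had -1.0, -0.51 and -0.39. Akap8, an anchor of the nuclear matrix, had -1.0, 0.08 and -0.84, again with a change of sign for the first arrays. As the mean of all probes of a gene, Pde11a had -0.50, Pde7b -0.63, Pde4b 0.28 and Creb3 0.13. None of these 9 genes passed with the first arrays alone, where the lowest adjusted p among all 135 probes was 0.0734 in limma.

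Akap12 did not pass at 6 h. Its difference was 1.80 and 0.78 for saline and 1.53 and 0.24 for PACAP38 on arrays 1 and 2, higher in 4 of 4 measurements, with an adjusted p of 0.101 in limma.

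The change of the difference from 6 h to 24 h passed for 8 probes higher and 5 lower of 127 (all probes, 10.7% and 9.14%). With the 2 pairs of arrays as replicates 0 of 127 passed in limma (all probes, 0.0%), with a smallest adjusted p of 0.653 and 1 higher and 6 lower at an unadjusted p under 0.05.

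The genes upstream and downstream of this machinery were taken from lists. Of the ligands and receptors 0 of 5 passed the threshold with PACAP38 in PMCAO at either time. The PACAP receptor gene Adcyap1r1 had log2 ratios of -0.36 and -0.27 in PMCAO at 24 h and -0.22 and -0.28 at 6 h, and the gene of the related peptide Vip had 0.60 and 0.29 at 24 h. The PACAP gene Adcyap1 itself had 0.10 and 0.05. After PMCAO it was lower at 24 h in all 4 measurements, from -0.66 to -0.47, with an adjusted p of 0.114 in limma. At 6 h it was higher in all 4, from 0.22 to 1.04, with an adjusted p of 0.0263 in limma. Its mean difference at 6 h was 0.55, and 0.26 with the first arrays alone. Of the 5 G protein genes, 3 protein kinase A inhibitors, 2 CREB coactivators measured and 4 cyclic nucleotide-gated channels of the Hcn family, 0 passed in PMCAO at 24 h.

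CREB target genes, most of them immediate early genes, lie downstream of the pathway, whose activity was not measured. Of 15 measured (18 listed), 7 were in PMCAO at 24 h past the lower threshold and 0 past the upper one with PACAP38, against 8.18% and 2.99% of all probes. Fos had log2 ratios of -1.62 and -2.33, Fosb -1.57 and -1.75 and Junb -0.93 and -1.08. Nr4a1 had -0.88 and -1.0, Egr1 -0.60 and -0.93 and Dusp1, shown above with its palindrome, -0.54 and -0.95. For the other, Snf1lk (a salt-inducible kinase), the arrays disagreed (-1.02 and 0.17).

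Not every target followed. Nr4a2 had 0.45 and 0.65, Bdnf 0.37 and 0.18 and Sst, whose promoter also holds the palindrome, 0.03 and -0.03. In PMCAO at 6 h 3 of the targets were past the upper threshold (all probes, 5.41%): Fos with 1.15 and 0.22, Nr4a3 with 1.84 and 1.06 (well above background in 2 of the 16 channels), and Arc with a value on array 2 alone (0.88). Of the 15 targets 10 were higher on both arrays there, compared with 20.5% of all probes, and their median was 0.50. Genes of the acute response to ischemia were higher too, 5 of 7 past the upper threshold and 6 of 7 higher on both arrays, with a summed signal of 40392 to 56074 for saline and 96535 to 108657 for PACAP38 (saline in sham, 6136 to 9120.3). Of 5 neutrophil markers 3 were past the upper threshold and 1, Ngp, past the lower one, with 6945 to 7480.3 for saline and 9485 to 12477 for PACAP38 (sham, 1373 to 2644). The part of either list was not tested.

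Against sham at 24 h, Fos was higher in the saline PMCAO pool (1.61 and 1.43) and lower in the PACAP38 PMCAO pool (-0.85 and -0.81), and Egr1 was lower in both (-0.57 and -0.49 for saline, -1.59 and -1.68 for PACAP38). These genes respond to many stimuli besides cyclic AMP. With PACAP38 over saline in PMCAO at 24 h the genes of the acute response to ischemia were lower too, as given with Akap12. Against sham at 24 h the summed signal of these acute response genes was higher in both PMCAO pools. It was 73623 to 75222 for saline and 29621 to 32994 for PACAP38, against 6252 to 8037 in sham. The part of the acute response genes in the result was not tested.

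**Figure D5:**
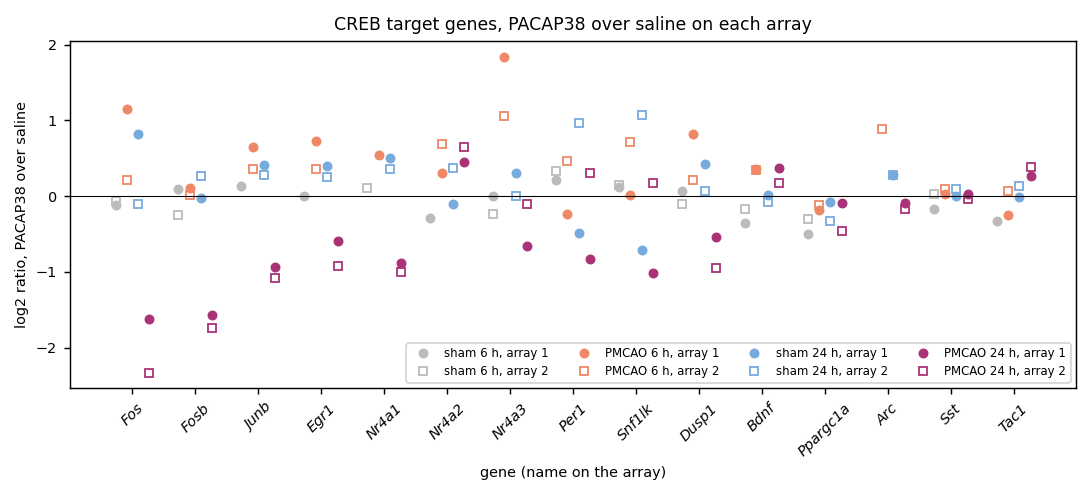
Log2 ratio of PACAP38 over saline for 15 CREB target genes (x axis, names as on the array) on each array; filled circles are array 1, open squares array 2, and colours the 4 comparisons. In PMCAO at 24 h Fos, Fosb, Junb, Egr1, Nr4a1 and Dusp1 are below 0 on both arrays, while Nr4a2, Bdnf and Tac1 are above it.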

How the data were processed

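The authors processed their scans with Agilent Feature Extraction, whose version per the file headers was 9.5.1.1 for the 6 h arrays and 9.5.3.1 for those of 24 h. Its background-subtracted and dye-normalized log10 ratio of Cy5 over Cy3 was deposited for each spot. Deposited intensity columns gave raw, background and processed signals, and other deposited columns flag outlier spots and spots well above background (0 or 1). A deposited p-value per spot, from the software's error model for 1 array, was not used. A second deposited table held the Cy5 over Cy3 ratio, entered as scores with a minus sign where PACAP38 was in Cy3; its size matched the processed signals within 0.005.

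The ratios were put on the log2 scale as PACAP38 over saline. Control and outlier spots were left out and spots of a probe averaged. The 2 arrays of a comparison hold the same RNA and were counted as 1 replicate, although the titles number them as separate pools. PMCAO over sham used same-dye channels of one time. Tests were made with limma 3.58.1 in R 4.3.3 on all probes with Benjamini-Hochberg adjustment, and tables with Python 3.11.15, pandas 2.3.3 and numpy 2.4.6. The fits were also run on simulated data, with the noise of the real fits drawn independently. Errors that the channels of one array share were not simulated, so that run does not check for them. P-values measure the spread between pools, not between mice, and the number of arrays limits the precision. For PMCAO over sham this spread includes any difference between the saline and the PACAP38 pools. For probes not well above background in the dimmer pool, a fold was taken from signals after normexp, loess and Aquantile. It is a ratio and not a lower bound.

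Genes were named by a rule: a fixed set (of which Akap5 was not among the array names), genes well above background that passed the fold threshold on each of both arrays (up to 4 per direction), and for PMCAO over sham those that passed (up to 6 per direction) or the 3 largest. Other names were chosen after their values were seen. Each gene is given by its brightest probe. The members and the lists of pathway genes and cell type markers were chosen with earlier results of these data known. Of the listed markers of striatal neurons 1 is not reported here and was left out of its list. Alternatives were other normalizations (normexp with an offset of 50, loess, quantile, Aquantile, median), filters on dim probes, outlier spots kept, single arrays, other replicates and other thresholds.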

Additional observations from a re-analysis of the deposited data

Results flagged for a closer look

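In 2 cases both arrays of one group went one way and both of the other group the opposite way, and the difference was not tested. For Adcy5 the log2 ratio of PACAP38 over saline was lower in PMCAO at 6 h than in sham at 6 h by a difference of -0.75. For Akap12 it was lower in PMCAO at 24 h than in PMCAO at 6 h by a difference of -1.96, with time and slide not to be told apart.

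In 5 cases the difference between PMCAO and sham changed from 6 h to 24 h with an adjusted p under 0.05 in limma. The change (log2) was 4.25 for Akap10, 1.13 for Akap11, 1.09 for Akap8, 1.53 for Pde11a and -1.49 for Pde4c. With pairs of arrays as replicates 0 of the cyclic AMP probes passed, and the Akap10 value rests on array 2 of sham at 24 h. The other changes depend on the second arrays at 6 h. With the first arrays alone the 6 h difference went from -1.17 to -0.36 for Akap11 and from -1.0 to 0.08 for Akap8. It went from -1.67 to -1.04 for Pde11a and from 1.82 to 0.84 for Pde4c. Without array 2 of each surgery 1 probe passed for the change.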

How the results depend on the processing

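The counts of cyclic AMP probes past the threshold with PACAP38 were 15 (sham) and 12 (PMCAO) at 6 h and 5 (sham) and 15 (PMCAO) at 24 h. In this order they were 1, 1, 0 and 7 after normexp and loess, 3, 2, 0 and 7 on both arrays, 1, 4, 2 and 4 as genes by the brightest probe, and 14 to 26, 14 to 32, 10 to 24 and 20 to 23 on single arrays. With 1.5-fold either way they were 7 (sham, 6 h), 2 (sham, 24 h) and 9 (PMCAO, 24 h), and among probes well above background 8 and 0 in sham at 6 h and 24 h. The deposited table and the keeping of outlier spots left them within 1.5 times. The tests of the PACAP38 ratio gave 0 under every alternative, the replicate block included.

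PMCAO over sham gave 44, 4 and 13 probes at 6 h, at 24 h and for the change between them. Pairs of arrays as replicates, an alternative added after seeing the data, gave 0, 0 and 0, and each dye as a replicate with the replicate number as a block 29, 0 and 0. Without array 2 there were 0, 1 and 1, and without array 1 58, 3 and 29. Leaving out 1 pair of pools gave 29 to 44, 0 to 8 and 10 to 31. Normexp with loess and Aquantile gave 64, 11 and 41, quantile normalization 43, 1 and 15, median scaling 56, 4 and 19, and a filter on dim probes 50, 4 and 21. The mean over both times gave 34, and 0 with time as a random block. With 1 array of each surgery left out, the difference of Akap8 at 6 h ranged from -2.09 (without array 1) to 0.085 (without array 2), that of Creb3 at 6 h from -0.028 (without array 2) to 0.90 (without array 1), and that of Akap10 at 24 h from -0.18 (without array 2) to 7.70 (without array 1). The higher and lower calls by normexp, loess and Aquantile were 31 and 33 at 6 h, 5 and 6 at 24 h and 15 and 26 for the change, against 17 and 27, 4 and 0, and 8 and 5. Quantile normalization gave 11 and 32, 1 and 0, and 12 and 3, and median scaling 14 and 5 for the change. The alternatives for single genes were scored as 100 the same, 19 weaker, 3 stronger, 4 moved and 3 turned in direction. For PACAP38 ratios, the same meant a change smaller than the SD of the 2 arrays, whether or not the threshold was still passed. In PMCAO at 6 h Pde5a went from 0.66 to 0.01 and Pde4c from -0.49 to -0.11 after normexp and loess. Both were scored the same although neither stayed past the threshold. For the mean of all probes in PMCAO over sham only the sign was scored. The calls that became stronger were Pde3b, Pde7b and Prkar2b at 24 h after normexp, loess and Aquantile. The cause was not tested. The array number is also the dye orientation, and deviations of same-numbered arrays correlated at 0.23 to 0.65 between comparisons.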
